A study of Mus with 96 samples.

Results

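The 10 genes described here code for temperature-responsive proteins: the cold-inducible RNA-binding proteins Cirbp and Rbm3, the cytosolic chaperones and co-chaperones Hspa8, Hsp90aa1, Hsph1, and Dnajb1, the stress-inducible Hsp70 genes Hspa1a and Hspa1b, and the mitochondrial chaperonins Hspd1 and Hspe1. They were chosen by gene name from the 55487 genes in the deposited count table. All 10 were found, and all 10 passed the filter of 100 or more counts summed over the libraries, which left 15548 genes to test. In the RefSeq annotation of GRCm38.p6, Cirbp lies on chromosome 10 at 80165990 to 80172786, Rbm3 on chromosome X at 8138975 to 8145880, Hspa8 on chromosome 9 at 40801276 to 40805202, Hsp90aa1 on chromosome 12 at 110691036 to 110696395, Hsph1 on chromosome 5 at 149616843 to 149636498, and Dnajb1 on chromosome 8 at 83608175 to 83612653. Hspa1b (34956429 to 34959238) and Hspa1a (34969359 to 34972156) are near-identical neighbors on chromosome 17, so reads can be split between them and their single values are uncertain. Hspd1 (55077833 to 55088243) and Hspe1 (55088148 to 55091317) overlap by 96 bases on chromosome 1.

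Heat shock genes are switched on by the transcription factor HSF1, which is held inactive by chaperones and released when unfolded proteins or warmth engage them. Hsp70 and Hsp90 proteins fold and hold client proteins, and Hsp40 and Hsp110 proteins steer the Hsp70 cycle. Cirbp and Rbm3 respond in the opposite direction, rising with mild cooling. Body temperature has a daily cycle, and in the liver such genes are known as examples of rhythms that signals from the rest of the body can drive in tissue whose own clock is stopped. The question put to these data was whether the daily rhythms of the 10 genes were still present in livers in which hepatocytes lack BMAL1, the core activator of the clock, on normal chow (NC) and on a high-fat diet that lacks choline (cdHFD).

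Livers of 96 mice on a C57BL/6J background, 8 to 10 weeks old before acclimation, were sampled, 24 for each of 4 groups: Hep-Bmal1WT on NC, Hep-Bmal1KO on NC, Hep-Bmal1WT on cdHFD, and Hep-Bmal1KO on cdHFD. Mice of both genotypes carried floxed Bmal1 alleles, and Hep-Bmal1KO mice also carried Cre recombinase driven by the albumin promoter, which deletes the gene in hepatocytes and leaves other liver cells with it; the controls were littermates. After at least 1 week of acclimation the diets were given for 2 weeks with free access to food, and 4 mice per group were sampled at each of ZT 2, 6, 10, 14, 18, and 22, where ZT is the number of hours since lights on and ZT 12 is the start of the dark phase. At every ZT there were 2 males and 2 females, except 3 males and 1 female in Hep-Bmal1WT on cdHFD at ZT 14. Neither body temperature nor room temperature is among the measurements, so the word temperature describes what is known of these genes and not a variable of the data.

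Libraries held from 1861740 to 9718615 reads assigned to genes. The 3′ reads of Arntl (Bmal1) lie outside the deleted exon and do not check the genotype. Judged by genes other than the members, 7 libraries, 4 on NC and 3 on cdHFD, lay nearer to the other genotype at the same diet and ZT. Every column of the library plate held 1 genotype and 1 diet, so these and the plate column cannot be told apart. Within a group, the livers of each ZT filled their own block of wells in 1 column, and each column held only neighboring ZTs. ZT and plate position therefore cannot be told apart within a group either, and this limit applies to every rhythm described here. Levels are in CPM, the reads of a gene relative to the library's TMM-scaled total. Liver is a mixture of cells, and fewer cells of a type and less RNA per cell cannot be told apart.

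Rhythm was called within a group when edgeR's quasi-likelihood test of a 24-hour cosine and sine gave an adjusted p below 0.05 (Benjamini-Hochberg over all 15548 genes). In Hep-Bmal1WT on NC, 8 of the 10 genes were rhythmic, where 19.1% of all genes tested were. In Hep-Bmal1KO on NC, 3 of the 10 were rhythmic, against 4.34% of all genes. On cdHFD, 6 of the 10 were rhythmic in Hep-Bmal1WT (14.6% of all genes) and 6 in Hep-Bmal1KO (3.83% of all genes). The genes rhythmic in both genotypes were Hspa8, Hsp90aa1, and Hspe1 on NC, and Cirbp, Hspa8, Hsp90aa1, Hsph1, and Hspa1b on cdHFD. Of the 10 core clock genes set beside them, 9 were rhythmic in Hep-Bmal1WT and 4 in Hep-Bmal1KO on NC, and 9 and 7 on cdHFD. Without the 7 libraries nearer to the other genotype, the calls of Rbm3 (adjusted p of edgeR 0.12) and Dnajb1 (0.0520) in Hep-Bmal1WT on NC, of Hspa8 (0.077) and Hspe1 (0.0594) in Hep-Bmal1KO on NC, and of Hsph1 (0.0813) in Hep-Bmal1WT on cdHFD were lost. Among the 23 calls of rhythm made for the 10 genes, 7 held under each of 12 alternative analyses and 16 were lost under at least 1. The 7 were Hspa8, Hsp90aa1, and Hspe1 in Hep-Bmal1WT on NC, Hsp90aa1 in Hep-Bmal1KO on NC and in Hep-Bmal1WT on cdHFD, and Cirbp in both genotypes on cdHFD.

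Cirbp, whose product binds RNA and stabilizes selected transcripts when cells are cooled, had the clearest light-phase peak. In Hep-Bmal1WT on NC the 4 libraries at ZT 6 had 10.7, 10.7, 13.4, and 19 CPM, and those at ZT 14 had 4.83, 3.49, 2.30, and 2.78 CPM. The ZTs did not overlap, and their means differed 4.01-fold. Here and for the genes below, the ZTs compared were in most cases those with the highest and lowest mean, picked from these same values. Their separation is a description and not a test of rhythm, and the share of all genes with such a separation was not counted. Amplitude, the distance from the daily mean (mesor) to the peak of a fitted cosine on the log2-like variance-stabilized scale, was 0.52 ± 0.14 (SE, n = 24 livers, as for all amplitudes and peak times here), with a peak at ZT 3.44 ± 1.02 (adjusted p of edgeR 0.0086). On cdHFD the Hep-Bmal1WT libraries at ZT 2 had 48, 13.9, 7.62, and 7.83 CPM against 3.35, 4.13, 3.21, and 3.78 CPM at ZT 18, with medians of 10.9 and 3.56 CPM. In Hep-Bmal1KO on cdHFD, Cirbp was at 15.0, 10.1, 35.5, and 13.2 CPM at ZT 2 and at 3.01, 4.60, 1.86, and 2.16 CPM at ZT 14. The lowest ZT 2 library of each genotype on cdHFD was thus above the highest library of its trough. Amplitude on cdHFD was 0.76 ± 0.16 with a peak at ZT 3.44 ± 0.83 in Hep-Bmal1WT (adjusted p of edgeR 0.000132) and 0.89 ± 0.13 with a peak at ZT 2.80 ± 0.56 in Hep-Bmal1KO (adjusted p of edgeR 4.03e-05).

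Cirbp was not called rhythmic in Hep-Bmal1KO on NC (amplitude 0.26 ± 0.16, adjusted p of edgeR 0.663). There its mean was highest at ZT 22, where the libraries spread most: the males had 18.2 and 24.9 CPM and the females 7.13 and 2.47 CPM. At ZT 6 the 4 livers were close to each other at 12.8, 12.7, 14.6, and 10.2 CPM. In the same ZT 22 livers Hspa8 had the opposite split, with 374.8 and 409.3 CPM in the males and 982.6 and 1172 CPM in the females. The males that were high in Cirbp were thus the lowest 2 of the 24 livers of the group in Hspa8. The call for Cirbp in Hep-Bmal1WT on NC was lost without replicate 3 (adjusted p of edgeR 0.142) and without replicate 4 (0.0783). Both replicates were females at every ZT of that group. The call in Hep-Bmal1WT on cdHFD did not rest on the ZT 2 liver with 48 CPM, since it held without replicate 1.

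**Figure D1:**
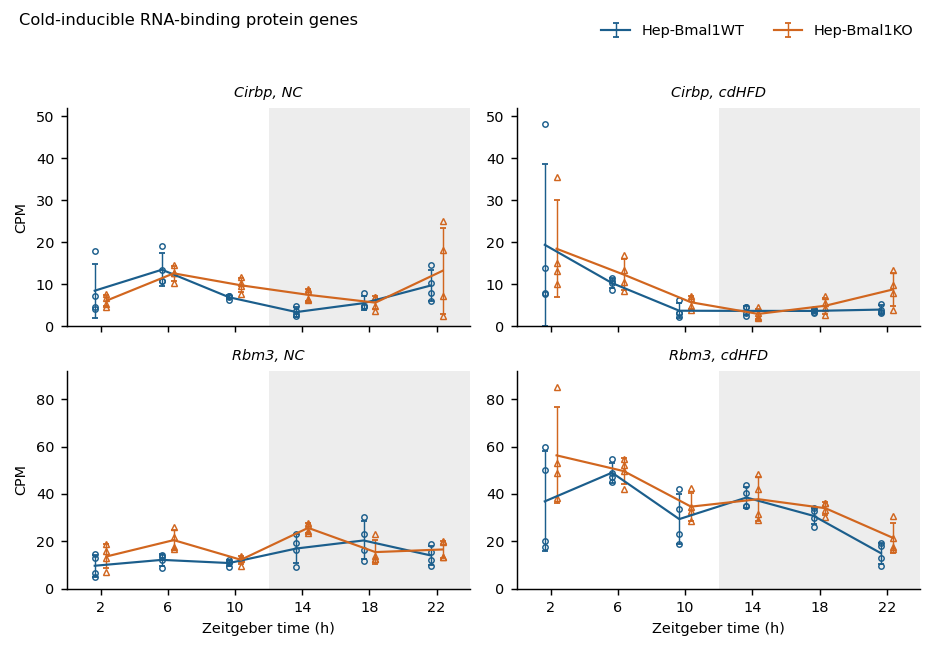
CPM of Cirbp and Rbm3 (vertical axes) against ZT in hours (horizontal axes) on NC and cdHFD. Points are single livers, lines join the means of 4 livers, bars are SD, and shading is the dark phase; Cirbp peaks in the early light phase in 3 of the groups, and Rbm3 sits higher on cdHFD.

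Rbm3, the other cold-inducible RNA-binding protein gene, was distinguished by its level rather than by a rhythm shared with Cirbp. It was called rhythmic in Hep-Bmal1WT on NC alone, with an amplitude of 0.38 ± 0.12 and a peak at ZT 16.7 ± 1.2, in the dark phase (adjusted p of edgeR 0.0383). This call was lost under 6 of the 12 alternatives, while Rbm3 was called in Hep-Bmal1WT on cdHFD with no filter on low counts (0.0293) and without the 7 libraries nearer to the other genotype (0.0437). On cdHFD the fitted peaks lay in the light phase, at ZT 9.00 ± 1.41 in Hep-Bmal1WT and ZT 6.50 ± 1.31 in Hep-Bmal1KO, with adjusted p of edgeR 0.0946 and 0.123. The libraries of Hep-Bmal1WT on cdHFD had 48.9, 47.3, 45, and 54.8 CPM at ZT 6 and 13.1, 19.2, 17.9, and 9.70 CPM at ZT 22. The same ZTs did not overlap in Hep-Bmal1KO on cdHFD either, with 49.7, 52.1, 54.8, and 42.1 CPM at ZT 6 and 17.6, 21.2, 30.6, and 16.5 CPM at ZT 22. Rbm3 overlaps the antisense transcript Rbm3os by 454 bases.

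Hspa8, the constitutive Hsp70 of the cytosol, rose in the dark phase on NC in both genotypes. In Hep-Bmal1WT on NC the libraries at ZT 18 had 1389, 1261, 1304, and 1460 CPM against 557.9, 556.8, 569.3, and 534.2 CPM at ZT 6, and in Hep-Bmal1KO on NC 1466, 1228, 1266, and 1400 CPM against 634.0, 551.1, 570.5, and 643.4 CPM. The ranges did not overlap in either genotype, and the means differed 2.44-fold and 2.23-fold. Amplitude was 0.61 ± 0.11 in Hep-Bmal1WT (peak ZT 15.6 ± 0.7, adjusted p of edgeR 0.00059) and 0.47 ± 0.15 in Hep-Bmal1KO (peak ZT 16.99 ± 1.18, adjusted p of edgeR 0.0467). The call in Hep-Bmal1KO was lost under 7 of the 12 alternatives, among them each replicate left out and the 7 libraries left out. On cdHFD the highest mean moved to ZT 10 in Hep-Bmal1WT, where the libraries had 1145, 978.9, 829.9, and 1302 CPM, and ZT 18 became the lowest, with 581.7, 640.8, 418.5, and 492.0 CPM. In Hep-Bmal1KO on cdHFD the highest mean was at ZT 14, with 980.3, 912.7, 1274, and 1126 CPM, and the lowest at ZT 22, with 548.8, 539.4, 551.7, and 674.8 CPM. Hspa8 also holds the small nucleolar RNA genes Snord14c, Snord14d, and Snord14e in its span.

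Hsp90aa1, the stress-responsive cytosolic Hsp90, was the only one of the 10 genes besides Hspa8 to be called rhythmic in all 4 groups. In Hep-Bmal1WT on NC it had 246.5, 251.5, 272.5, and 241.3 CPM at ZT 18 and 70.6, 112, 64.4, and 115 CPM at ZT 10. In Hep-Bmal1KO on NC it had 236.5, 161.3, 209.7, and 263.5 CPM at ZT 18 and 90.9, 76.8, 54.4, and 48.4 CPM at ZT 10. Every ZT 18 liver was above every ZT 10 liver within a genotype, and the means differed 2.80-fold in Hep-Bmal1WT and 3.22-fold in Hep-Bmal1KO. Amplitude on NC was 0.72 ± 0.13 in Hep-Bmal1WT and 0.69 ± 0.12 in Hep-Bmal1KO, with peaks at ZT 18.95 ± 0.66 and ZT 19.9 ± 0.7. On cdHFD amplitude was 0.53 ± 0.09 and 0.39 ± 0.09, with peaks at ZT 15.4 ± 0.6 and ZT 14.4 ± 0.9. The adjusted p of edgeR was 0.000337 and 0.00321 on NC and 0.00046 and 0.0172 on cdHFD, Hep-Bmal1WT given first.

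Hsph1, an Hsp110 protein that exchanges nucleotides on Hsp70, had its highest mean at ZT 14 and its lowest at ZT 6 on NC in both genotypes. In Hep-Bmal1WT on NC its libraries had 52.2, 53.6, 66.4, and 75 CPM at ZT 14 and 13.8, 17, 14.5, and 13 CPM at ZT 6, a 4.24-fold difference of means. In Hep-Bmal1KO on NC they had 39, 54.7, 62.3, and 60.1 CPM at ZT 14 and 16.7, 15.8, 12.5, and 21.4 CPM at ZT 6, a 3.25-fold difference. The ZTs were apart in both genotypes, yet the test of rhythm passed only in Hep-Bmal1WT (amplitude 0.72 ± 0.15, adjusted p of edgeR 0.00496) and fell just short in Hep-Bmal1KO (0.61 ± 0.16, adjusted p of edgeR 0.0551). It passed there with sex as a covariate (0.0414), with DESeq2 (0.01), and with no filter on low counts (0.0369). Hsph1 stayed uncalled there by the cosinor F test (adjusted p 0.0775) and by JTK_CYCLE (adjusted p 0.148). The same held with each replicate left out and without the libraries nearer to the other genotype. On cdHFD Hsph1 was rhythmic in both genotypes, with amplitudes of 0.46 ± 0.13 and 0.51 ± 0.11 (adjusted p of edgeR 0.042 and 0.0051). Dnajb1, an Hsp40 protein that delivers clients to Hsp70 and is itself induced by heat, was rhythmic in Hep-Bmal1WT on NC (0.43 ± 0.12, peak ZT 13.7 ± 1.1, adjusted p of edgeR 0.041) and in Hep-Bmal1KO on cdHFD (0.37 ± 0.08, peak ZT 11.7 ± 0.8, adjusted p of edgeR 0.0096). In the other groups its amplitude was 0.24 ± 0.13 (Hep-Bmal1KO on NC) and 0.26 ± 0.09 (Hep-Bmal1WT on cdHFD).

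**Figure D2:**
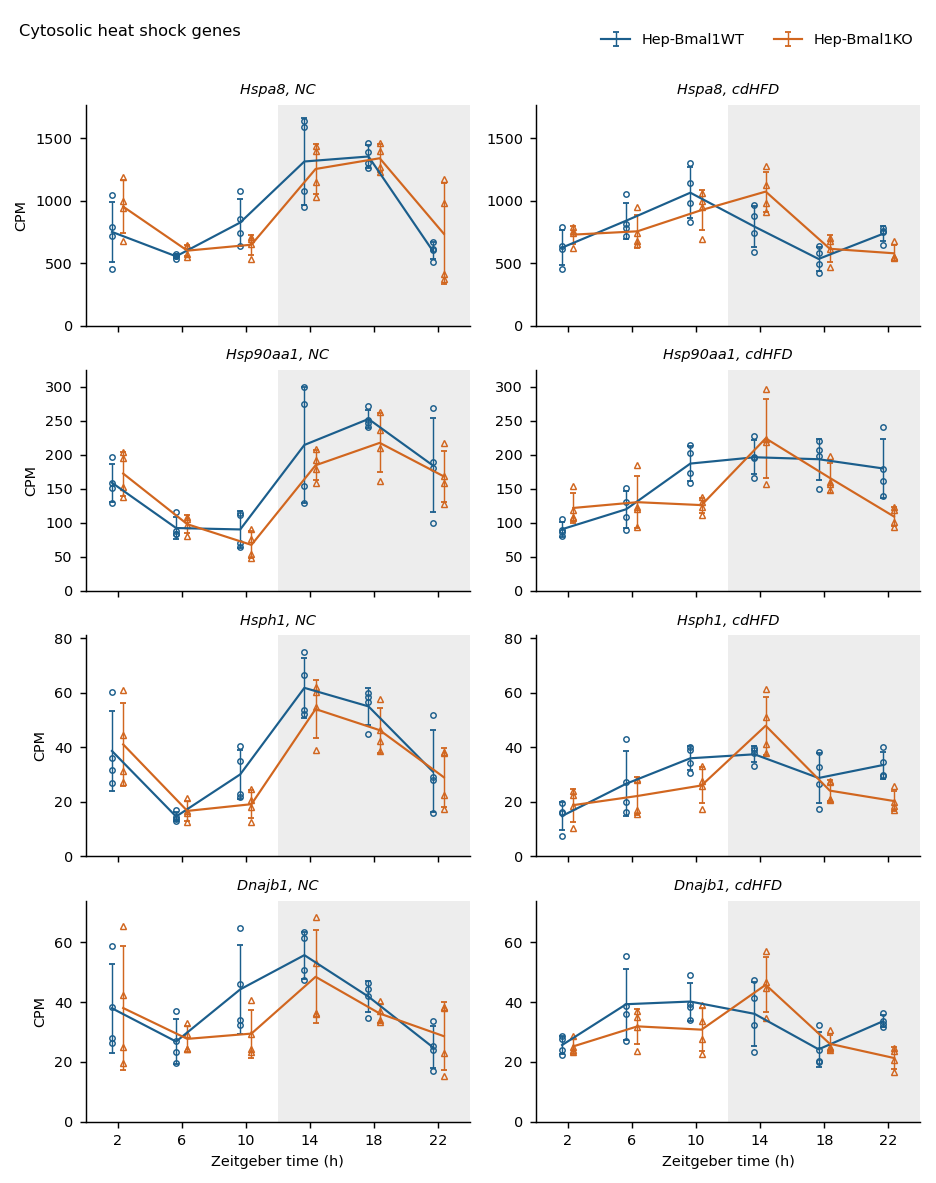
CPM of Hspa8, Hsp90aa1, Hsph1, and Dnajb1 (vertical axes) against ZT in hours (horizontal axes) on NC and cdHFD. Points are single livers, lines join the means of 4 livers, bars are SD, and shading is the dark phase; on NC the highest means lie at ZT 14 or ZT 18 in both genotypes, and on cdHFD at ZT 10 or ZT 14.

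Hspa1a and Hspa1b, the inducible Hsp70 genes that are near silent in unstressed cells, spread widely between livers. Hspa1b in Hep-Bmal1WT on NC ran from 2.14 to 100.9 CPM with a median of 22.2, and in Hep-Bmal1KO on NC from 4.15 to 140.2 CPM with a median of 26.4. At ZT 14 the Hep-Bmal1KO livers on NC had 85.6, 113, 140.2, and 139.5 CPM, and at ZT 6 they had 20.3, 13.6, 13.2, and 4.15 CPM. Although these ZTs were apart by 9.34-fold in the mean, the rhythm of Hspa1b on NC was not called in either genotype (amplitude 1.18 ± 0.35 and 1.2 ± 0.34, adjusted p of edgeR 0.214 and 0.16). With sex as a covariate it was called in Hep-Bmal1WT (adjusted p of edgeR 0.0168). At ZT 2 on NC the sexes stood far apart in both genotypes: the males had 44.6 and 89.7 CPM (Hep-Bmal1WT) and 58 and 119.7 CPM (Hep-Bmal1KO), and the females 4.75, 2.62, 6.87, and 6.62 CPM. On cdHFD at ZT 2 no liver exceeded 16.1 CPM. There Hspa1b was rhythmic, with an amplitude of 0.66 ± 0.18 and a peak at ZT 10.8 ± 1.0 in Hep-Bmal1WT and of 0.74 ± 0.26 and ZT 12.5 ± 1.3 in Hep-Bmal1KO (adjusted p of edgeR 0.01 and 0.0317). The call in Hep-Bmal1KO was lost under 5 of the 12 alternatives. Hspa1a was low, between 0 and 15.1 CPM over all livers, and was called in no group. Its group means were highest at ZT 14 in all 4 groups.

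Hspd1 and Hspe1, the Hsp60 and Hsp10 of mitochondria that form 1 folding chamber and share a bidirectional promoter, had their lowest mean at ZT 10 in all 4 groups. Hspe1 in Hep-Bmal1WT on NC had 172, 204.2, 168, and 162 CPM at ZT 10 and 472.1, 409.5, 546.1, and 417.2 CPM at ZT 18, a 2.61-fold difference. In Hep-Bmal1KO on NC it had 213, 159.6, 174, and 195.3 CPM at ZT 10 and 336.5, 359.8, 354.6, and 481.7 CPM at ZT 22. In both genotypes the livers at these ZTs, picked for the lowest and highest mean, did not overlap. The amplitude of Hspe1 on NC was 0.53 ± 0.09 in Hep-Bmal1WT (peak ZT 20.1 ± 0.6, adjusted p of edgeR 0.000414) and 0.39 ± 0.08 in Hep-Bmal1KO (peak ZT 21.3 ± 0.8, adjusted p of edgeR 0.024). The call in Hep-Bmal1KO was lost under 6 of the 12 alternatives: each replicate left out (adjusted p of edgeR 0.0629 to 0.241), the 7 libraries left out, and JTK_CYCLE (adjusted p 0.0802). On cdHFD it was 0.30 ± 0.06 (peak ZT 18.2 ± 0.7, adjusted p of edgeR 0.00424) and 0.23 ± 0.10 (adjusted p of edgeR 0.284). Hspd1 was rhythmic in Hep-Bmal1WT on NC (0.30 ± 0.07, peak ZT 20.03 ± 0.84, adjusted p of edgeR 0.016), and its amplitude elsewhere was between 0.13 and 0.24. Its trough in Hep-Bmal1KO on NC was tight, with 148.9, 148.9, 148.3, and 157.0 CPM at ZT 10 against 242.9, 242.0, 275.2, and 261.5 CPM at ZT 6, although no 24-hour rhythm was called (adjusted p of edgeR 0.603).

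**Figure D3:**
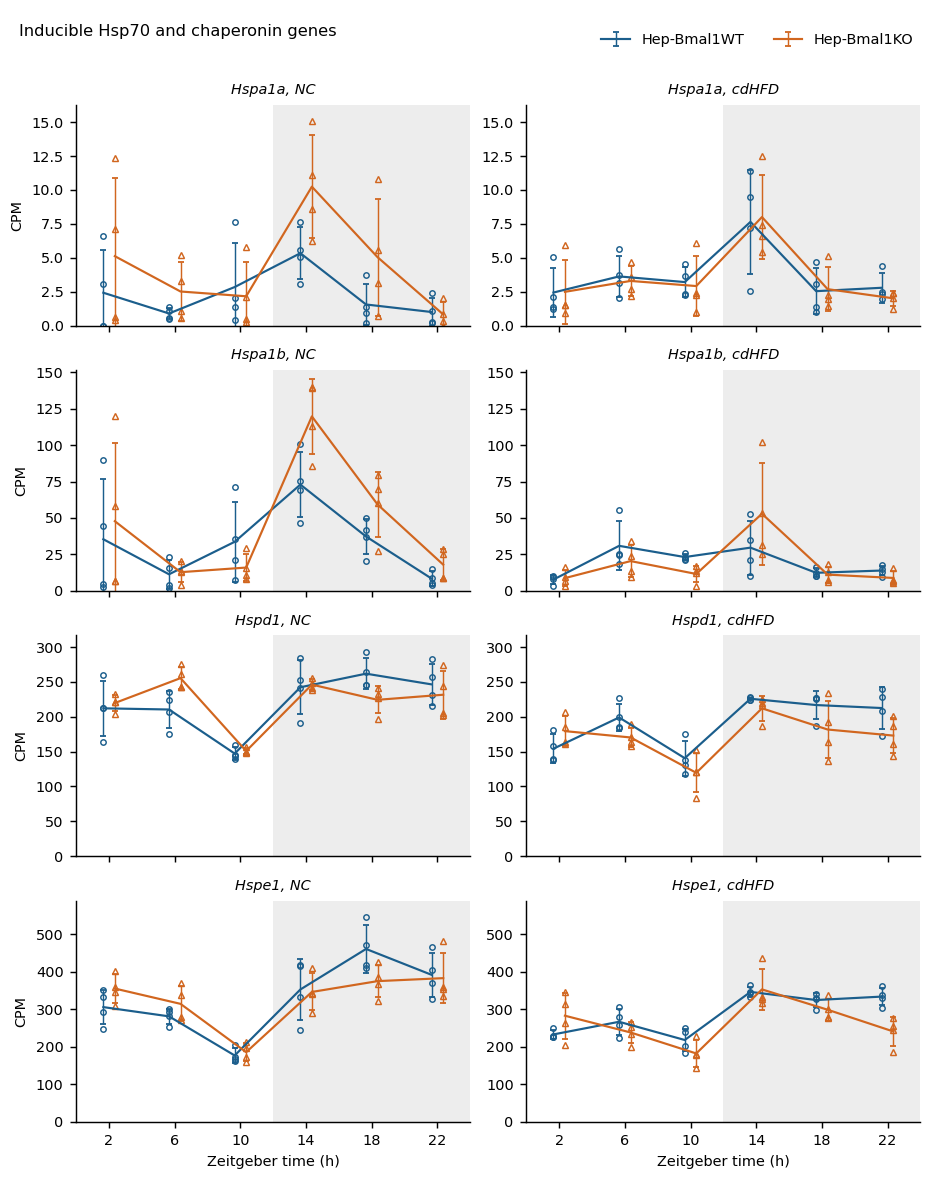
CPM of Hspa1a, Hspa1b, Hspd1, and Hspe1 (vertical axes) against ZT in hours (horizontal axes) on NC and cdHFD. Points are single livers, lines join the means of 4 livers, bars are SD, and shading is the dark phase; Hspd1 and Hspe1 have their lowest mean at ZT 10 in every group, and Hspa1b has its highest mean at ZT 14 in 3 of the groups.

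The loss of calls in Hep-Bmal1KO on NC was not matched by a difference between genotypes when that difference was tested. In edgeR's test of genotype with cosine and sine, none of the 10 genes passed on NC, where 0.392% of all genes did, and none on cdHFD, where 0.424% did. The smallest adjusted p of edgeR was 0.787 on NC (Hspd1) and 0.94 on cdHFD (Dnajb1), and no member had an unadjusted p under 0.05 on either diet. DESeq2 called none either. The same test passed for Arntl on NC (adjusted p of edgeR 0.00935) and for Arntl (0.0158), Dbp (0.000223), and Nr1d1 (0.000653) on cdHFD. It did not pass on NC for Dbp (0.635), Nr1d1 (0.951), or Per2 (0.42), and of the 10 core clock genes 1 passed on NC and 4 on cdHFD. On simulated NC counts the test found 67.7% of rhythms with an amplitude of 1 log2 unit that were lost in 1 genotype. On that log2 scale of edgeR, all 10 members had smaller amplitudes in Hep-Bmal1WT on NC, from 0.28 (Hspd1) to 0.76 (Cirbp).

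The difference between fitted amplitudes was also compared. A fitted amplitude cannot be negative and is above its true value in a flat gene, so the difference can understate a loss. On simulated counts, rhythms present in 1 genotype only gave a median difference of -0.886. There 0.484% of flat genes had an unadjusted amplitude p under 0.05, so the test is conservative. On NC, 8 of the 10 genes had a lower amplitude in Hep-Bmal1KO and 2, Hspa1a and Hspa1b, a higher one (both lower with log2 CPM), with differences from -0.26 (Cirbp) to 0.02 (Hspa1b) and a median of -0.14. On cdHFD, 6 were higher and 4 lower, from -0.14 (Hsp90aa1) to 0.12 (Cirbp), with a median of 0.04. Over all genes the median amplitude difference was also below 0, at -0.042 on NC and -0.025 on cdHFD. The share of all genes with a lower amplitude was not counted. At an unadjusted p under 0.05, none of the 10 differed on NC (4.12% of all genes did) and none on cdHFD (2.93% did). The 95% interval of the NC difference was -0.51 to 0.23 for Hspa8, -0.38 to 0.32 for Hsp90aa1, -0.56 to 0.33 for Hsph1, -0.38 to 0.10 for Hspe1, and -0.68 to 0.17 for Cirbp. The interval for Hsp90aa1 reaches down to -0.38 and leaves out a difference as large as its amplitude of 0.72. That for Cirbp includes a difference as large as its 0.52. Since the difference can understate a loss, these intervals are not strict bounds on it. On cdHFD the interval for Cirbp was -0.30 to 0.55, around an amplitude of 0.76 in Hep-Bmal1WT. On the same variance-stabilized scale the amplitude of Arntl fell by 1.11 on NC (95% interval -1.54 to -0.67) and by 0.97 on cdHFD. That of Dbp fell by 1.11 and 0.86. On edgeR's log2 scale the NC amplitude was 1.97 in Hep-Bmal1WT and 0.37 in Hep-Bmal1KO for Arntl, and 2.73 and 1.99 for Dbp. The NC difference in rhythm of Dbp did not pass edgeR's test (adjusted p of edgeR 0.635).

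**Figure D4:**
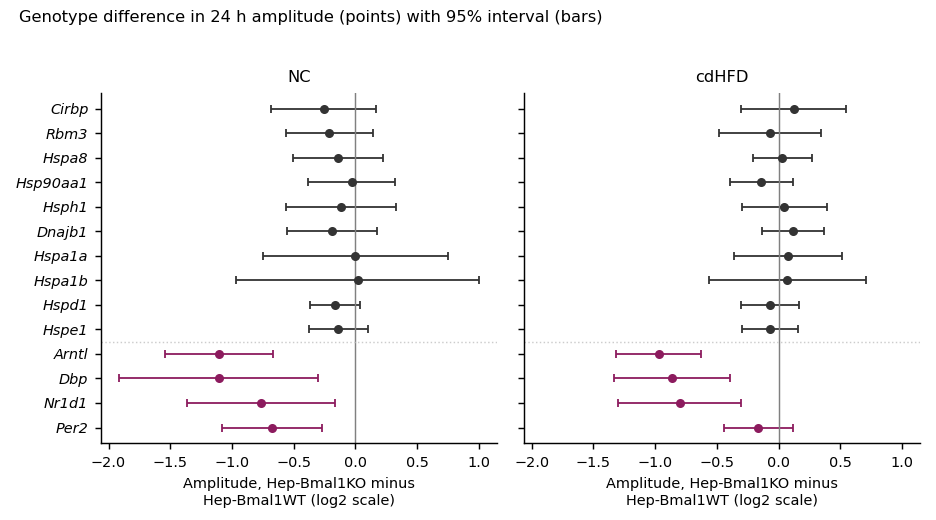
Difference in fitted amplitude, Hep-Bmal1KO minus Hep-Bmal1WT, on the log2-like variance-stabilized scale (horizontal axis) for the 10 genes and for Arntl, Dbp, Nr1d1, and Per2, on NC and cdHFD. Points are estimates and bars 95% intervals; the bars of all 10 genes cross 0 on both diets, and those of Arntl, Dbp, and Nr1d1 lie below 0.

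Peak times were compared where a gene was rhythmic in both genotypes. On NC the peaks came later in Hep-Bmal1KO by 1.43 h for Hspa8 (95% interval -1.22 to 4.07), 1.27 h for Hspe1 (-0.79 to 3.34), and 0.97 h for Hsp90aa1 (-0.93 to 2.87). None of the 3 passed an unadjusted p of 0.05, which 12.2% of the 460 genes rhythmic in both genotypes passed (11.1% with an earlier peak in Hep-Bmal1KO). The median difference over the genes compared was -0.94 h, opposite in sign to the 3 estimates. On cdHFD none of the 5 genes rhythmic in both genotypes passed, where 17.8% of 377 did (5.57% with an earlier peak in Hep-Bmal1KO), with differences from -0.92 h (Hsp90aa1) to 1.73 h (Hspa8). For Cirbp the difference on cdHFD was -0.64 h (-2.63 to 1.34). Dbp peaked 2.20 h later in Hep-Bmal1KO on cdHFD (1.06 to 3.34).

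The level over the day also did not differ between genotypes beyond the threshold. None of the 10 genes passed on NC (12.6% of all genes did) or on cdHFD (9.61% did). At an unadjusted p under 0.05 there was 1 on NC, Rbm3, higher in Hep-Bmal1KO by 0.31 ± 0.13 on the log2 scale (SE, 24 against 24 livers, as for all level differences within a diet or genotype; adjusted p of edgeR 0.103). On cdHFD there were 2, Rbm3 again higher by 0.24 ± 0.11 (adjusted p of edgeR 0.151), and Hspd1 lower, at -0.15 ± 0.06 (0.113). DESeq2 called none of the 10 on either diet. The largest NC estimate was that of Hspa1a, 0.77 ± 0.39 (adjusted p of edgeR 0.218), a gene of few counts. In the test of genotype by diet over all 96 livers none of the 10 passed for level (2.23% of all genes did) or for rhythm (0.0900% did).

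The fitted timing of Hspa8 and Hsp90aa1 differed between the diets in both genotypes, where diet and plate column cannot be told apart. The rhythm of Hspa8, Hsp90aa1, and Rbm3 differed between cdHFD and NC in Hep-Bmal1WT (adjusted p of edgeR 0.00185, 0.0276, and 0.028), 3 of 10 genes where 6.19% of all genes passed. In Hep-Bmal1KO it differed for Hsp90aa1 (adjusted p of edgeR 0.0257) and Hspa8 (0.0451), 2 of 10 genes where 0.907% of all genes passed. The peak of Hspa8 came earlier on cdHFD by 6.50 ± 1.27 h in Hep-Bmal1WT and by 6.20 ± 1.5 h in Hep-Bmal1KO. For Hsp90aa1 the peak moved earlier by 3.60 ± 0.97 h and by 5.49 ± 1.21 h. These were 2 of the 5 members rhythmic on both diets in Hep-Bmal1WT and 2 of 2 in Hep-Bmal1KO, where 42.4% of 979 and 33.7% of 101 genes rhythmic on both diets had an earlier peak at an unadjusted p under 0.05, and 47.6% and 39.6% a shifted peak in either direction. Benjamini-Hochberg adjusted p of these cosinor peak differences was 6.49e-05 and 0.00143 for Hspa8 and 0.00251 and 0.000533 for Hsp90aa1, and all 4 kept an unadjusted p under 0.05 in each alternative run. The edgeR call of both genes in Hep-Bmal1KO was lost with each replicate left out in turn, and that of Hspa8 also without the 7 libraries nearer to the other genotype (adjusted p of edgeR 0.0626). The calls in Hep-Bmal1WT were lost without replicate 4 for Hspa8, without replicate 1, 2, or 3 for Hsp90aa1, and without replicate 1, 2, or 4 for Rbm3.

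For Cirbp in Hep-Bmal1WT the peak time differed between diets by 0.01 h, with a 95% interval of -2.73 to 2.74 h. Over the same diet change Arntl peaked 4.66 ± 0.51 h earlier and Dbp 4.74 ± 0.53 h earlier in Hep-Bmal1WT. The amplitude of Cirbp in Hep-Bmal1KO was higher on cdHFD than on NC by 0.62 ± 0.21 (unadjusted p from the cosinor comparison 0.00418, Benjamini-Hochberg adjusted p 0.692), and without replicate 3 the unadjusted p was 0.0554. That was 1 of 10 genes in Hep-Bmal1KO, where 4.25% of all genes passed at an unadjusted p under 0.05. In Hep-Bmal1WT it was Hspe1 whose amplitude was lower on cdHFD, at -0.23 ± 0.10 (unadjusted 0.0311, Benjamini-Hochberg adjusted p 0.565), 1 of 10 genes where 7.92% of all genes passed. Within a diet the mouse numbers of different ZTs did not overlap, so ZT and the order of numbering cannot be told apart. At every ZT the numbers of the diets did not overlap either, so the same holds for diet.

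**Figure D5:**
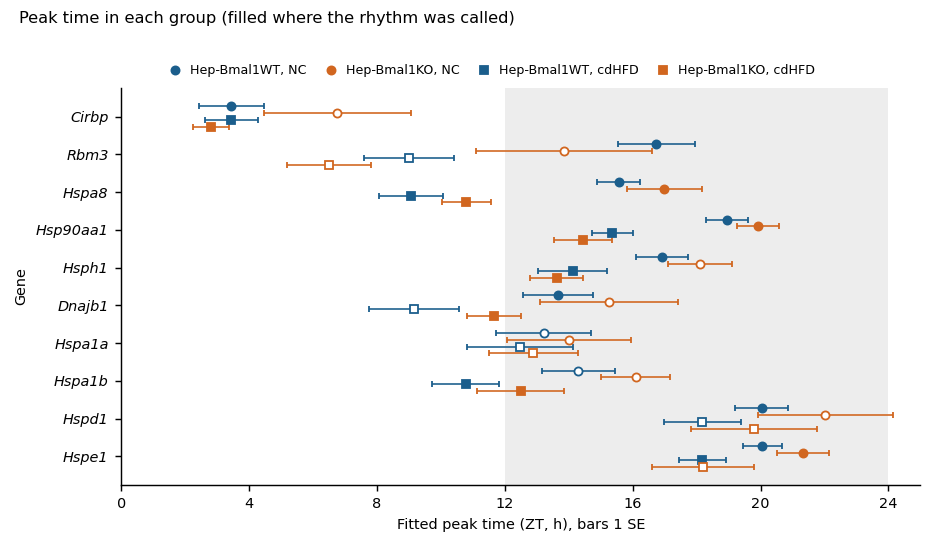
Fitted peak time in ZT hours (horizontal axis) of the 10 genes in the 4 groups. Bars are 1 SE and filled symbols mark rhythms called by edgeR. The peaks of Hspa8 and Hsp90aa1 on cdHFD lie earlier than on NC in both genotypes. Where its rhythm was called, Cirbp peaks between ZT 2.80 and ZT 3.44, and its fitted peak at ZT 6.76 is that of Hep-Bmal1KO on NC, where no rhythm was called.

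Levels over the day changed with diet for 4 of the 10 genes in Hep-Bmal1WT, 2 higher and 2 lower, where 55.7% of all genes changed, 28.7% higher and 27.0% lower. In Hep-Bmal1KO they changed for 5 of the 10, 1 higher and 4 lower, where 61.9% of all genes changed, 32.4% higher and 29.6% lower. Rbm3 rose the most: its libraries ran from 4.72 to 30.2 CPM on NC and from 9.70 to 59.7 CPM on cdHFD in Hep-Bmal1WT, with medians of 12.5 and 33.7. In Hep-Bmal1KO they ran from 6.87 to 27.9 CPM and from 16.5 to 85.3 CPM, with medians of 16.3 and 36.2. The ranges overlapped in both genotypes, and the log2 difference was 1.21 ± 0.16 (2.31-fold, adjusted p of edgeR 4.98e-09) and 1.14 ± 0.12 (2.21-fold, adjusted p of edgeR 1.69e-11). The level of Cirbp did not pass in either genotype, at -0.28 ± 0.20 and -0.22 ± 0.21. Without replicate 1, which includes the liver with 48 CPM, Cirbp was lower on cdHFD in Hep-Bmal1WT (adjusted p of edgeR 0.0135).

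Both chaperonin genes fell on cdHFD. Hspd1 differed by -0.19 ± 0.05 in Hep-Bmal1WT (adjusted p of edgeR 0.00191) and -0.36 ± 0.06 in Hep-Bmal1KO (1.76e-07), and Hspe1 by -0.15 ± 0.06 (0.0379) and -0.29 ± 0.07 (0.000289). The Hep-Bmal1WT call of Hspe1 was lost under 7 alternatives. In Hep-Bmal1KO, Hspa1b fell by 1.16 ± 0.29 on the log2 scale (adjusted p of edgeR 0.000557), from a median of 26.4 to 13.3 CPM, and Hsph1 by 0.33 ± 0.13 (adjusted p of edgeR 0.0313), a call lost with the size factors of DESeq2 (0.0555) and without replicate 1, 2, or 4. In Hep-Bmal1WT, Hspa1a rose by 0.72 ± 0.30 (adjusted p of edgeR 0.0374), lost without replicate 1, 3, or 4. Without the 7 libraries nearer to the other genotype, Dnajb1 was lower on cdHFD in Hep-Bmal1KO, at -0.26 (adjusted p of edgeR 0.039).

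Markers of cell types also moved with the diet. Over all genes, 28.7% were higher and 27.0% lower in Hep-Bmal1WT, and 32.4% and 29.6% in Hep-Bmal1KO. The summed CPM of 6 macrophage markers (Adgre1, Cd68, Clec4f, Cd5l, Lyz2, Csf1r) ran from 208.3 to 548.1 on NC and from 953.0 to 2409 on cdHFD in Hep-Bmal1WT, and from 175.7 to 557.8 and from 1326 to 2747 in Hep-Bmal1KO, with all 6 higher in each genotype. Of 6 hepatocyte markers all 6 were lower in each genotype. Their summed level ran from 104400 to 213300 on NC and from 54840 to 91590 on cdHFD in Hep-Bmal1WT, and from 90550 to 217400 and from 49470 to 86180 in Hep-Bmal1KO. Of 6 stellate cell and fibroblast markers 5 were higher in Hep-Bmal1WT and 6 in Hep-Bmal1KO, with summed levels of 168.7 to 393.3 against 495.0 to 1064 and 151.2 to 363.5 against 487.3 to 1629. Of 6 lymphocyte and neutrophil markers 5 and 4 were higher, with sums of 17.9 to 61.1 against 126 to 267.4 and 20.1 to 65.6 against 144 to 337.6. Of 5 endothelial markers 3 were higher and 1 lower in each genotype, and of 5 cholangiocyte markers 2 and 3 were higher. Immediate early genes, which respond to handling and injury, were higher for 6 of 8 in each genotype and lower for 1 in Hep-Bmal1WT, with summed medians of 101 and 200.7 CPM in Hep-Bmal1WT and 92.6 and 206.8 CPM in Hep-Bmal1KO. No cell type marker had a median of 0 CPM in any group. The part of these shifts in the diet differences of the 10 genes was not tested.

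Sex was tested across all 96 livers. Hspa1a was higher in males by 0.61 ± 0.22 on the log2 scale (adjusted p of edgeR 0.0414), the only 1 of the 10 genes to pass, where 8.24% of all genes were higher and 8.99% lower in males. The call was lost without replicate 2, 3, or 4. Hspa1b had an estimate of 0.36 ± 0.19 in the same direction (adjusted p of edgeR 0.2).

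Of 6 pairs of members tested, 4 moved together between livers of the same genotype, diet, and ZT, 1 moved inversely, and 1 did not pass. For each pair, deviations of log2 CPM from the mean of the 4 livers were correlated over the 96 livers and tested by permutation within groups, with 100000 resamples, for which 1e-05 is the smallest p. Hsph1 and Hspa8 had r = 0.70 (rho 0.74, adjusted permutation p 2e-05), Hspa1a and Hspa1b 0.79 (rho 0.72, adjusted permutation p 2e-05), Hspd1 and Hspe1 0.62 (rho 0.58, adjusted permutation p 2e-05), and Hsph1 and Dnajb1 0.54 (rho 0.56, adjusted permutation p 2.4e-05). Cirbp and Hsph1 were inversely related, with r = -0.54 (rho -0.49, adjusted permutation p 2.4e-05 and 6e-05). The inverse relation was present in each of the 4 groups of 24 livers, with r of -0.47 and -0.56 in Hep-Bmal1WT and Hep-Bmal1KO on NC and -0.51 and -0.64 on cdHFD. Without the 2 libraries farthest from the median of Cirbp, r was -0.49. Cirbp and Rbm3 had r = 0.22 (rho 0.18, adjusted permutation p 0.153), ranging from -0.26 in Hep-Bmal1WT on NC to 0.61 in Hep-Bmal1WT on cdHFD. All values of a liver come from 1 library, and those of Hspa1a with Hspa1b can share reads. With sex added to the groups, an alternative chosen after the data had been seen, r was -0.33 for Cirbp and Hsph1 (adjusted permutation p 0.0451), 0.59 for Hsph1 and Hspa8 (0.00164), and 0.29 for Hsph1 and Dnajb1 (0.216).

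The livers with the most Cirbp of each group, ranked over all 6 ZTs and so not within a ZT, were also described by their heat shock genes. The liver with 48 CPM of Cirbp, a female of Hep-Bmal1WT on cdHFD at ZT 2, had the lowest Hsph1 (7.51 CPM), Hsp90aa1 (80.4 CPM), and Hspa1b (3.08 CPM) of the 24 livers of its group. In Hep-Bmal1KO on cdHFD the liver with most Cirbp (35.5 CPM), a male at ZT 2, also had the most Rbm3 (85.3 CPM) and the least Hsph1 (10.3 CPM) and Hspa1b (3.07 CPM), while its Hspd1 and Hspe1 ranked 20 and 18 from the lowest of 24. In Hep-Bmal1WT on NC the liver highest in Cirbp (19 CPM, a female at ZT 6) had the lowest Hsph1 (13 CPM). In Hep-Bmal1KO on NC the liver highest in Cirbp (24.9 CPM, a male at ZT 22) had the lowest Dnajb1 (15.2 CPM), while 8 of the 24 livers had less Hsph1 than its 22.4 CPM. These livers were picked for their Cirbp and are a description.

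Across the 24 means of 4 groups and 6 ZTs, each group centered, 6896 genes with a mean of at least 10 CPM were ranked by likeness. The profile of Cirbp was most like those of Ift46 (r = 0.91), Inca1 (0.87), and Snapin (0.87), and its r with Hsph1 was -0.82. The profile of Hsph1 was most like those of Chordc1 (0.92), a co-chaperone of Hsp90, of Ahsa2 (0.87), a homolog of the Hsp90 ATPase activator, and of Dynll1 (0.87), a dynein light chain. Of the other members, Hsp90aa1 (0.86), Hspa1b (0.85), Hspa8 (0.82), Dnajb1 (0.77), and Hspa1a (0.67) were closer to Hsph1 than Hspe1 (0.49), Hspd1 (0.36), and Rbm3 (0.11).

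Other chaperones and co-chaperones were rhythmic as well. Of 42 such genes, 20 were rhythmic in Hep-Bmal1WT on NC and 10 in Hep-Bmal1KO on NC, and 11 and 8 on cdHFD, where 19.1%, 4.34%, 14.6%, and 3.83% of all genes were. Their fitted peaks fell in the dark phase for 19 of the 20, 9 of the 10, 9 of the 11, and 8 of the 8 in the same order, where 46.9%, 50.2%, 46.8%, and 48.7% of all genes called rhythmic peaked in the dark phase. Fkbp4, an Hsp90-bound immunophilin, peaked at ZT 18.7 ± 0.4 and ZT 19.1 ± 0.9 on NC and at ZT 15.9 ± 0.6 and ZT 15.0 ± 0.6 on cdHFD, Hep-Bmal1WT given first. Stip1, which joins Hsp70 to Hsp90, peaked at ZT 18.3 ± 0.6 and ZT 18.5 ± 1.1 on NC and at ZT 14.1 ± 0.6 and ZT 14.8 ± 0.6 on cdHFD. The rhythm of 5 genes of the list differed between diets in Hep-Bmal1WT, Stip1 (adjusted p of edgeR 0.00861), Dnaja1 (0.0202), Tcp1 (0.0279), and Hspb8 (0.0373) among them, and that of 1, Hsp90ab1, in Hep-Bmal1KO (0.0407), where 6.19% and 0.907% of all genes differed. None of the 42 passed edgeR's test of a genotype difference in rhythm on either diet, where 0.392% and 0.424% of all genes did. At an unadjusted p under 0.05 of the cosinor comparison, amplitude differed for 5 of the 42 on NC and 0 on cdHFD. Over all genes 4.12% and 2.93% did. By the same threshold, peak time differed for 0 of the 8 and 1 of the 7 rhythmic in both genotypes. Among all genes rhythmic in both, 12.2% and 17.8% did. Of the genes that differed, named after their values were seen, Dnajb6 had an NC amplitude difference of -0.37 (unadjusted p from the cosinor comparison 0.00863). Hspb1 had a cdHFD peak difference of -2.31 h (0.00999).

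Levels of this wider list did differ between genotypes for a few genes. On NC 6 of the 42 passed, 3 higher and 3 lower (7.0% of all genes were higher and 5.61% lower), and on cdHFD 5, all lower (4.62% of all genes were higher and 4.99% lower). Hspb1, the small heat shock protein Hsp27, was lower in Hep-Bmal1KO at -1.39 ± 0.19 on NC and -0.87 ± 0.12 on cdHFD on the log2 scale (adjusted p of edgeR 1.13e-06 and 2.67e-06), and it was rhythmic in all 4 groups, with amplitudes of 1.16 ± 0.19 and 0.82 ± 0.19 on NC and 0.76 ± 0.11 and 0.75 ± 0.13 on cdHFD. Dnajb2 was higher on NC (0.22 ± 0.07) and lower on cdHFD (-0.27 ± 0.07), and its genotype by diet difference passed (adjusted p of edgeR 0.00369). With diet, 4 of the 42 were higher and 17 lower in Hep-Bmal1WT, and 3 higher and 22 lower in Hep-Bmal1KO, where 28.7% and 32.4% of all genes were higher and 27.0% and 29.6% lower, Hep-Bmal1WT given first, with list medians of -0.13 and -0.15 where all genes had 0.01 and 0.02. Serpinh1, a chaperone of collagen, was higher by 1.34 ± 0.14 and 1.77 ± 0.13 beside the stellate cell markers given above, and Trap1, the mitochondrial Hsp90, was lower at -0.54 ± 0.05 and -0.64 ± 0.05.

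Of 3 heat shock factor genes, Hsf2 was rhythmic on NC in both genotypes with a light-phase peak, at ZT 8.98 ± 0.81 and ZT 7.53 ± 0.81 (adjusted p of edgeR 0.00581 and 0.0242). Hsf1, which codes for the main activator of the heat shock genes, was called in Hep-Bmal1WT on cdHFD (amplitude 0.27 ± 0.06, peak ZT 19.9 ± 0.9, adjusted p of edgeR 0.0253). Hsf4 was lower on cdHFD in both genotypes, at -0.43 ± 0.13 and -0.93 ± 0.14 (adjusted p of edgeR 0.00569 and 1.59e-07). By edgeR no heat shock factor gene differed between genotypes in level or rhythm on either diet. Over all genes 12.6% and 9.61% did in level and 0.392% and 0.424% in rhythm, NC given first. By the cosinor comparison, Hsf1 alone of the 3 had an unadjusted amplitude p under 0.05. Its cdHFD difference was -0.19 (unadjusted p from the cosinor comparison 0.0436), where 2.93% of all genes passed. The activity of the factors was not measured.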

How the data were processed

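Liver RNA was made into 3′ BRB-seq libraries by the authors, who aligned the reads with STAR (mm10). The deposited values are raw counts for each gene, not normalized. Their processing notes name HTSeq and featureCounts, and whether reads were collapsed to molecules is not given in the sources used here, so depth covers counting error only. Genotype, diet, ZT, and sex were taken from each label. Rows for reads without a gene held 22.6% to 39.9% of reads per library and were left out. The 15548 genes with a summed count of at least 100 were tested with edgeR 4.0.16 in R 4.3.3 (quasi-likelihood test, TMM scaling, Benjamini-Hochberg adjustment). Rhythms were fitted per group of 24 libraries and compared with interaction terms, and levels were compared with ZT as a factor. Amplitude and peak time came from a 24-hour cosinor on variance-stabilized values (DESeq2 1.42.0), with delta-method errors, following the CircaCompare model. Correlations used scipy 1.17.1. Adjusted p values of edgeR below 0.05 were called.

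The 10 genes and all lists were chosen with earlier results of these data known. The text names the 10 genes, Arntl, Dbp, Nr1d1, and Per2, up to 4 genes of smallest p per comparison in each list, and the 3 genes most like Cirbp and Hsph1; other genes of the chaperone list were named after their values were seen. On simulated NC counts of 14616 genes, edgeR's test found 77.2% of level differences of 1 log2 unit, 73.3% of rhythms with an amplitude of 1 log2 unit, and 59.3% of 4-hour shifts. Of the calls made there, 5.19% were false for level, 8.64% for rhythm, and 5.56% for a difference in rhythm. Alternatives were DESeq2, its size factors, a filter of at least 10 counts in 24 libraries, no filter, sex as a covariate, the cosinor F test, JTK_CYCLE, the rule of an unadjusted p under 0.01 in at least 1 of 3 tests, log2 CPM with a prior count of 2, each replicate number left out, and the libraries nearer to the other genotype left out. No sequence was searched for heat shock elements.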

Additional observations from a re-analysis of the deposited data

Results flagged for a closer look

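In 240 sets of 4 livers (10 genes, 4 groups, 6 ZTs), 13 held a liver whose distance from the nearest other value, as a share of the range of the set, exceeded Dixon's 95% limit; chance gives about 1 in 20. Values are CPM, each followed by the nearest other value of its set. For Cirbp these were 7.95 against 4.80 (Hep-Bmal1WT on NC, ZT 18, replicate 2) and 48 against 13.9 (Hep-Bmal1WT on cdHFD, ZT 2, replicate 1), and for Rbm3 23 against 13.9 (Hep-Bmal1KO on NC, ZT 18, replicate 1). Among the cytosolic chaperones, Hspa8 had 674.8 against 551.7 (Hep-Bmal1KO on cdHFD, ZT 22, replicate 4), Hsp90aa1 115.8 against 87.8 (Hep-Bmal1WT on NC, ZT 6, replicate 2), and Dnajb1 30.5 against 24.9 (Hep-Bmal1KO on cdHFD, ZT 18, replicate 2). Hspa1a had 5.96 against 1.54 (Hep-Bmal1KO on cdHFD, ZT 2, replicate 1), and Hspa1b had 15.7 against 7.27 in the liver that was also set apart in Hspa8. Hspd1 had 157.0 against 148.9 (Hep-Bmal1KO on NC, ZT 10, replicate 4) and, as the lowest of its set, 187.4 against 225.9 (Hep-Bmal1WT on cdHFD, ZT 18, replicate 4). Hspe1 had 481.7 against 359.8 (Hep-Bmal1KO on NC, ZT 22, replicate 4), 251.1 against 227.6 (Hep-Bmal1WT on cdHFD, ZT 2, replicate 4), and 436.0 against 332.1 (Hep-Bmal1KO on cdHFD, ZT 14, replicate 1).

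The rhythm differed between diets by a test of the difference itself for Hspa8 (adjusted p of edgeR 0.00185), Hsp90aa1 (0.0276), and Rbm3 (0.028) in Hep-Bmal1WT, and for Hspa8 (0.0451) and Hsp90aa1 (0.0257) in Hep-Bmal1KO.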

How the results depend on the processing

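No paired analysis was possible. The replicate numbers follow the order in which the libraries are listed and carry no number that mice of different groups share. That order largely follows sex: replicates 1 and 2 were male and 3 and 4 female in most groups. On cdHFD at ZT 2 it was the reverse, and in Hep-Bmal1WT on cdHFD at ZT 14 replicate 3 was male. Leaving out a replicate number therefore also makes the sexes unequal. The absence of any member called for a genotype difference in rhythm, level, amplitude, or peak time held under each alternative run, with 0 to 1 members at an unadjusted p of edgeR under 0.05 for rhythm and 0 to 3 for level. The counts of rhythmic members, all of 10, moved most. With each replicate number left out in turn, which leaves 18 libraries a group, they ranged from 3 to 7 in Hep-Bmal1WT on NC, were 1 in Hep-Bmal1KO on NC, and ranged from 3 to 6 and from 1 to 6 in Hep-Bmal1WT and Hep-Bmal1KO on cdHFD. In Hep-Bmal1KO on NC the count was 1 without the libraries nearer to the other genotype, 1 with JTK_CYCLE, and 5 with an unadjusted p under 0.01 in at least 1 of 3 tests. With JTK_CYCLE it was 3 in Hep-Bmal1WT and 2 in Hep-Bmal1KO on cdHFD. With a replicate left out the samples were smaller and the sexes unequal, and the cause of these changes was not tested.

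Members whose rhythm differed with diet ranged from 1 to 2 in Hep-Bmal1WT and were 0 by edgeR in Hep-Bmal1KO with a replicate left out (2 to 6 at an unadjusted p under 0.05), and the latter was 1 without the libraries nearer to the other genotype. Members with a diet difference in level ranged from 2 to 4 in Hep-Bmal1WT, members with a diet difference in amplitude from 0 to 2 in each genotype (2 in Hep-Bmal1KO with log2 CPM), and members with a sex difference from 0 to 1, or 2 with no filter. The correlation of Hsph1 with Dnajb1 was 0.29 within sex and missed the threshold.

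Counts over all genes with a replicate left out were 1462 to 1984 (Hep-Bmal1WT on NC), 155 to 202 (Hep-Bmal1KO on NC), 902 to 1494 (Hep-Bmal1WT on cdHFD), and 156 to 308 (Hep-Bmal1KO on cdHFD) rhythmic genes, against 2969, 675, 2264, and 596. For the genotype difference in rhythm they were 1 to 38 on NC and 12 to 35 on cdHFD, in level 940 to 1630 and 522 to 1376, for the diet difference in rhythm 348 to 534 (Hep-Bmal1WT) and 3 to 17 (Hep-Bmal1KO), for genotype by diet 70 to 268 (level) and 1 to 17 (rhythm), and for sex 1585 to 1930. DESeq2 gave 1133 and 1030 rhythmic genes in Hep-Bmal1KO on NC and cdHFD, the cosinor F test 339 and 369, JTK_CYCLE 250 and 256, and the unadjusted rule 1725 and 1572. For the genotype difference in rhythm, DESeq2 gave 32 and 20 genes on NC and cdHFD, the stricter filter 0 and 9, no filter 143 and 175, and NC without the libraries nearer to the other genotype 179. Beside that 0 by edgeR, 915 of 12249 genes had an unadjusted p under 0.05. For the diet difference in rhythm in Hep-Bmal1KO, DESeq2 gave 346, no filter 226, and sex as a covariate 223. For genotype by diet in rhythm, DESeq2 gave 41, its size factors 8, the stricter filter 6, no filter 147, and the fit without the libraries nearer to the other genotype 61, with 817 for level.

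The sign changed in 30 results of single members, 47 times in all, none with a p under 0.477. Without the libraries nearer to the other genotype these were the genotype difference of Hspd1 on NC (-0.0127), the diet difference of Hsp90aa1 in Hep-Bmal1KO (-0.0434), and the amplitude difference of Hspa1b between genotypes on NC (-0.0658); with log2 CPM, the NC amplitude differences of Hspa1a (-0.0724) and Hspa1b (-0.0630). With a replicate left out, amplitude differences between genotypes ranged on NC from -0.126 to 0.0443 (Hsp90aa1), -0.128 to 0.0906 (Hspa1a), and -0.0597 to 0.0529 (Hspa1b), and on cdHFD from -0.0878 to 0.331 (Cirbp), -0.176 to 0.311 (Hspa1a), -0.248 to 0.398 (Hspa1b), -0.0504 to 0.0851 (Hspa8), -0.0624 to 0.244 (Hsph1), and -0.185 to 0.0722 (Rbm3). Amplitude differences between diets ranged from -0.389 to 0.00488 (Hspa1a) and -0.0292 to 0.109 (Hspd1) in Hep-Bmal1KO, and from -0.0476 to 0.472 (Cirbp), -0.459 to 0.093 (Hspa1a), and -0.0572 to 0.167 (Rbm3) in Hep-Bmal1WT. Diet differences in level ranged from -0.0253 to 0.064 (Hsp90aa1) and -0.281 to 0.0804 (Hspa1a) in Hep-Bmal1KO and from -0.0862 to 0.17 (Hsp90aa1) in Hep-Bmal1WT. Genotype by diet ranged from -0.285 to 0.286 (Cirbp), -0.196 to 0.117 (Hsp90aa1), -0.12 to 0.00243 (Hsph1), and -0.207 to 0.101 (Rbm3). Genotype differences in level ranged from -0.00753 to 0.0345 (Hspd1) and -0.0294 to 0.0479 (Hspe1) on NC and from -0.0263 to 0.0653 (Hspa8) on cdHFD. The peak difference of Hsph1 between genotypes on cdHFD ranged from -0.952 to 0.151 h and that of Cirbp between diets in Hep-Bmal1WT from -0.226 to 0.471 h. Sex differences ranged from -0.00585 to 0.0749 (Dnajb1), -0.107 to 0.0517 (Hsp90aa1), -0.0375 to 0.00471 (Hspe1), and -0.122 to 0.0861 (Hsph1).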
